A study of Homo sapiens with 16 samples.

Results

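The 10 genes described here belong to the Hippo pathway and its transcriptional output: the regulators FRMD6 and LATS2, the coactivators YAP1 and WWTR1 (TAZ), the DNA-binding factors TEAD1, TEAD3 and TEAD4, and the target genes CTGF, CYR61 and AMOTL2. They were chosen by name for their place in the pathway, with earlier results of these data known. Each was found in the table of 58735 genes by matching its Ensembl identifier to GENCODE 29. All 10 had a mean of at least 1 FPKM (fragments normalised to exon length and library size) and were among the 13088 genes tested. RNA was sequenced from U2OS, an established human osteosarcoma line, in 16 libraries that form 8 groups of 2, numbered R1 and R2. Cells were transfected either with siNT, a non-targeting control siRNA, or with siSETD2, directed against the methyltransferase SETD2, which places the trimethyl mark on lysine 36 of histone H3. At 48 hours after transfection each was left untreated or given for 4 hours hydroxyurea (HU, 2 mM), which stalls replication by depleting nucleotides, the ATR kinase inhibitor VE-822 (2 µM), or both. The series title names the replication stress checkpoint as the subject, and all groups share the parental line and the transfection.

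As background, the Hippo pathway is a kinase cascade in which MST kinases with the scaffold SAV1 activate LATS kinases, and LATS kinases phosphorylate YAP and TAZ so that they are held in the cytoplasm or degraded. When the cascade is quiet, YAP and TAZ enter the nucleus, bind TEAD factors and switch on genes such as CTGF and CYR61, which encode secreted matricellular proteins. AMOTL2 and LATS2 are targets that also restrain YAP, so they act as feedback. RNA levels do not report the phosphorylation or location of YAP and TAZ.

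TEAD factors recognise the element GGAATG, and its matches near the members' starts are shown because CTGF, CYR61 and AMOTL2 are read as TEAD targets. RefSeq promoters of build GRCh38.p14, each with 250 bases before and 50 after a start, were found for 7 of the 10 genes. CYR61, TEAD1 and TEAD4 were not searched. The element was searched on both strands, and the capitals mark it.
CTGF, the 250 bases before the start, chr6:131951373-131951622, minus strand: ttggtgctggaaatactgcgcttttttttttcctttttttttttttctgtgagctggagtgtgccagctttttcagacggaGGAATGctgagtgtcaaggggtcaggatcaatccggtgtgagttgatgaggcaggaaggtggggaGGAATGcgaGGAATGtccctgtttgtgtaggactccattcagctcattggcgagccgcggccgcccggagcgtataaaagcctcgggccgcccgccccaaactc
AMOTL2, the second of 2 listed starts, chr3:134374499-134374528, minus strand: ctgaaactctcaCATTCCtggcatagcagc
YAP1, chr11:102110273-102110302, plus strand: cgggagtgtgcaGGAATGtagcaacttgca
The CTGF promoter held 3 matches before its start, and 29 of 35116 promoters (0.0826%) held at least 3 in the same window. At least 1 match lay before the start in 11.889% of promoters. YAP1 and 1 of the 2 AMOTL2 starts held 1 each, LATS2 held 1 just after its start, and FRMD6, TEAD3 and both WWTR1 starts held none on either side of the start. A match is only a stretch of letters, and these data hold no measurement of TEAD binding.

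In genome order on hg38, by GENCODE 29, CYR61 (ENSG00000142871) lies at chr1:85580761-85583962, AMOTL2 (ENSG00000114019) at chr3:134355874-134375479 and WWTR1 (ENSG00000018408) at chr3:149517235-149736714. TEAD3 (ENSG00000007866) lies at chr6:35473597-35497076, CTGF (ENSG00000118523) at chr6:131948176-131951373, TEAD1 (ENSG00000187079) at chr11:12674591-12944483 and YAP1 (ENSG00000137693) at chr11:102110461-102233423. TEAD4 (ENSG00000197905) lies at chr12:2959330-3040673, LATS2 (ENSG00000150457) at chr13:20973032-21061547 and FRMD6 (ENSG00000139926) at chr14:51489100-51730727. Annotated genes on the opposite strand share exon bases with WWTR1, CTGF and YAP1, and a pseudogene shares some with AMOTL2. These overlapping genes had mean levels of 0 to 0.289 FPKM, and whether the counting used strand is not given in the sources used here.

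Libraries held 22310806 to 31101932 fragments assigned to genes. SETD2 read 7.34 to 9.25 FPKM in the 8 siNT libraries and 2.01 to 4.63 FPKM in the 8 siSETD2 libraries, without overlap. The 4 libraries given VE-822 without HU stood apart from the other 12: 10.7% of tested genes were lower and 8.12% higher there than in each of the other 12, while libraries with VE-822 and HU lay among the rest. In the other 6 groups, R1 and R2 differed across the table (R2 against R1 passed for 41.2% of genes), and no label says what the number stands for. Of 8 osteoblast and mesenchymal markers, 4 exceeded a mean of 1 FPKM (VIM, SPARC, COL1A1, RUNX2), whereas SP7, ALPL, BGLAP and COL1A2 did not. RUNX2 read 5.85 to 6.91 FPKM with VE-822 alone and 0.833 to 1.91 FPKM elsewhere. Among blood markers, CD3D read 2.38 to 2.88 FPKM with VE-822 alone and 0.716 to 1.97 FPKM elsewhere, while PTPRC and HBB were at most 0.157 FPKM in every library. The part of CD3D-bearing RNA in the results was not tested. Endothelial markers stayed below a mean of 1 FPKM, and 2 of 5 epithelial markers exceeded it.

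On the FPKM scale, which divides by exon length and so allows levels of different genes to be compared, the secreted targets dominated. CYR61 averaged 645 FPKM and CTGF 239 FPKM over the 16 libraries. TEAD4 (30.9), AMOTL2 (30.1) and FRMD6 (21.4) followed, then TEAD1 (16.1), TEAD3 (13.3) and YAP1 (13.0). LATS2 (7.14) and WWTR1 (3.19) were lowest. Among the TEAD factors TEAD4 exceeded TEAD1 and TEAD3 in every library, and YAP1 exceeded WWTR1 in every library. TEAD1 and TEAD3 overlapped in their ranges, as did TEAD4 and AMOTL2.

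**Figure D1:**
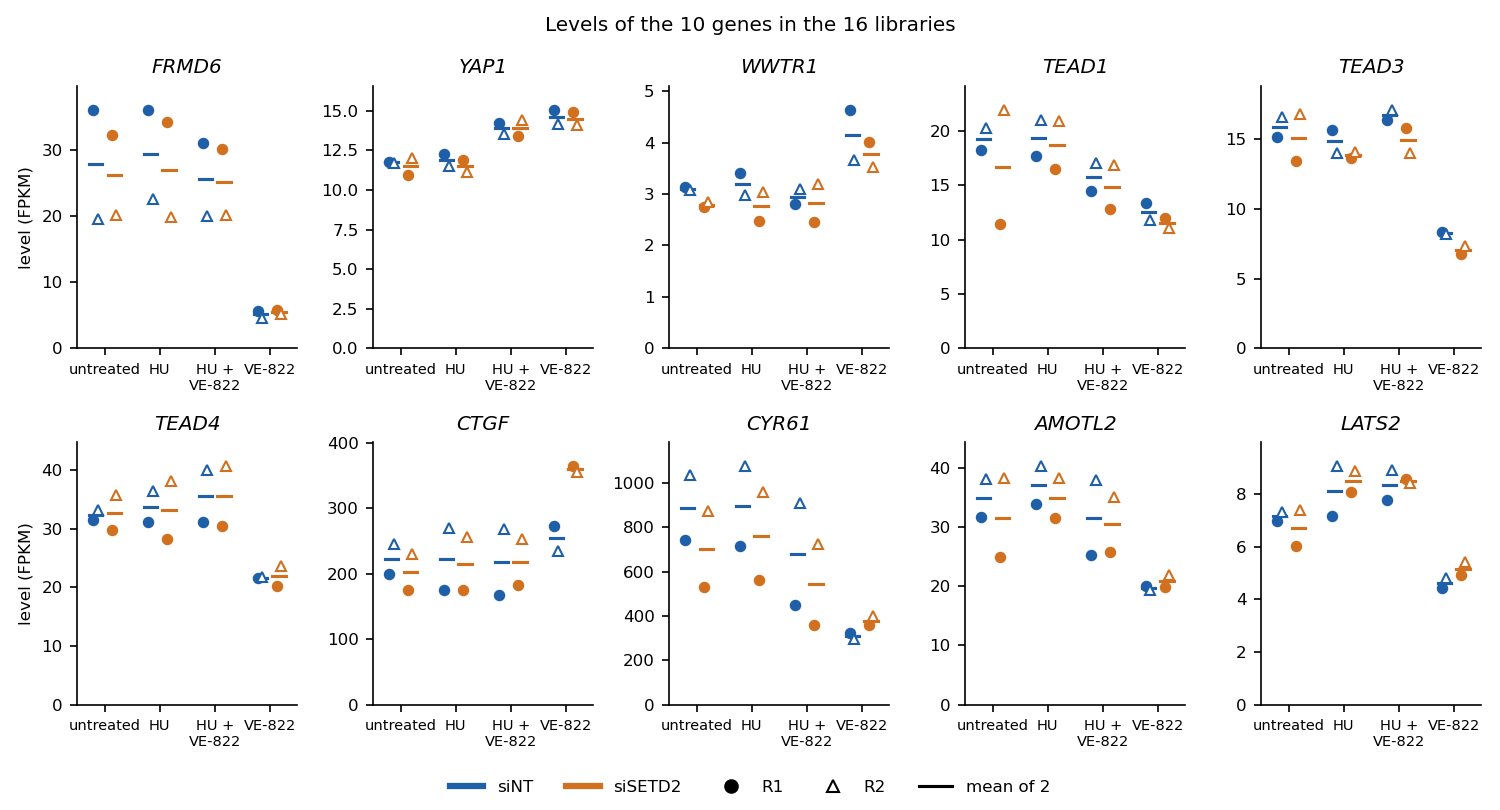
FPKM (linear axis from 0) of each of the 10 genes by treatment, for siNT (blue) and siSETD2 (orange), with R1 as filled circles, R2 as open triangles and a bar at the mean of the 2 libraries. FRMD6 sits between 4.58 and 5.73 FPKM with VE-822 alone and between 19.6 and 36.0 FPKM elsewhere, and R1 and R2 are set apart for FRMD6, CTGF, CYR61 and AMOTL2 outside the VE-822-alone groups.

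VE-822 alone was accompanied by the largest changes of these genes. Averaged over both siRNAs, 8 of the 10 passed against untreated cells: FRMD6, TEAD3, TEAD4, CYR61, AMOTL2 and LATS2 fell, and YAP1 and WWTR1 rose. By the same limma fit 24.7% of all tested genes passed, 1751 lower and 1486 higher (13.4% and 11.4%). With the replicate number as a block in 6 groups all 10 passed, against 44.9% of tested genes. The 10 were chosen with earlier results known, so these counts describe them and do not test an enrichment. The median difference in log2(FPKM + 1) was -0.53 over the 10 genes and -0.03 over all tested genes. In bulk RNA, fewer cells expressing a gene and less RNA per cell cannot be told apart.

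Among the regulators, FRMD6, a FERM-domain protein of the cell cortex that is placed upstream of the cascade, had the largest difference. In untreated siNT cells it read 36.0 FPKM in R1 and 19.6 FPKM in R2, and in untreated siSETD2 cells 32.2 and 20.1 FPKM. With VE-822 alone it read 5.69 and 4.58 FPKM in siNT and 5.73 and 5.16 FPKM in siSETD2. All 4 inhibitor-alone values lay far below all 12 others, despite the gap between R1 and R2 in the untreated cells. FRMD6 fell by 2.11 on the log2(FPKM + 1) scale (SE 0.26, adjusted p = 0.000429). LATS2, the kinase that phosphorylates YAP and TAZ, read 6.99 and 7.33 FPKM in untreated siNT cells against 4.44 and 4.81 FPKM with VE-822. In siSETD2 the values were 6.05 and 7.42 FPKM untreated and 4.93 and 5.42 FPKM with VE-822. The 4 LATS2 values with VE-822 alone were below all 12 others, and LATS2 fell by 0.43 (SE 0.09, adjusted p = 0.00836).

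The coactivators went the other way from the regulators. YAP1 averaged 14.6 ± 0.491 FPKM with VE-822 (SD, n = 4 libraries over both siRNAs) and 11.6 ± 0.469 FPKM untreated, and the ranges of 14.1 to 15.1 and 10.95 to 12.04 FPKM did not overlap. It rose by 0.30 (SE 0.07, adjusted p = 0.0115). WWTR1 read 4.64 and 3.66 FPKM with VE-822 in siNT and 4.02 and 3.52 FPKM in siSETD2, above the 2.75 to 3.13 FPKM of the 4 untreated libraries. It rose by 0.32 (SE 0.10, adjusted p = 0.0333), and its highest value was in siNT R1.

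All 3 TEAD factors among the genes described here were lower on average, and TEAD3 was the clearest. TEAD3 read 8.31 and 8.21 FPKM in siNT and 6.76 and 7.32 FPKM in siSETD2 with VE-822. Untreated cells read 15.1 and 16.6 FPKM in siNT and 13.4 and 16.8 FPKM in siSETD2. The 4 inhibitor-alone libraries were below all others, and TEAD3 fell by 0.93 (SE 0.09, adjusted p = 7.48e-05). TEAD4 fell by 0.56 (SE 0.14, adjusted p = 0.0143), from 32.6 ± 2.49 to 21.8 ± 1.42 FPKM (SD, n = 4), again with no overlap with the other 12. TEAD1 read 11.1 to 13.4 FPKM with VE-822 and 11.4 to 22.0 FPKM untreated. The untreated siSETD2 R1 library, at 11.4 FPKM, lay inside the VE-822 range, and the TEAD1 difference of -0.51 (SE 0.18) did not pass (adjusted p = 0.0573). TEAD2, a TEAD factor from the list of partners described below, was higher on average, by 0.21 (SE 0.14). It read 3.85 to 5.47 FPKM with VE-822 alone and 2.57 to 5.26 FPKM untreated, so the ranges overlapped. The TEAD2 difference did not pass by limma (adjusted p = 0.313 without the block and 0.0627 with it).

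The 3 target genes divided. CYR61 read 741 and 1036 FPKM in untreated siNT cells and 322 and 295 FPKM with VE-822. In siSETD2 it read 532 and 874 FPKM untreated and 358 and 398 FPKM with VE-822. The untreated and VE-822 ranges did not overlap, although the siSETD2 R1 library with both drugs (360 FPKM) reached into the VE-822 range. CYR61 fell by 1.18 (SE 0.30, adjusted p = 0.0185). AMOTL2, an angiomotin-family junction protein that binds YAP, averaged 33.2 ± 6.39 FPKM untreated and 20.3 ± 1.09 FPKM with VE-822 (SD, n = 4) and fell by 0.67 (SE 0.17, adjusted p = 0.0176). CTGF read 199 and 245 FPKM in untreated siNT cells and 273 and 235 FPKM with VE-822, so those 2 groups overlapped. In siSETD2 it read 175 and 230 FPKM untreated against 364 and 356 FPKM with VE-822, the highest of all 16 libraries. The averaged CTGF difference of 0.52 (SE 0.21) did not pass (adjusted p = 0.0907).

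CYR61 and CTGF, encoded by related genes of the CCN family, were therefore in different proportion with VE-822 alone. CYR61 FPKM was 3.04 to 4.23 times CTGF FPKM in the 8 untreated and HU libraries. It was 0.982 to 1.25 times CTGF in the 4 libraries with VE-822 alone. With both drugs it was 2.69 and 3.39 times CTGF in siNT and 1.97 and 2.87 times in siSETD2. The inhibitor-alone ratios lay below all others. These ratios were set side by side after their values were seen and carry no test.

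**Figure D2:**
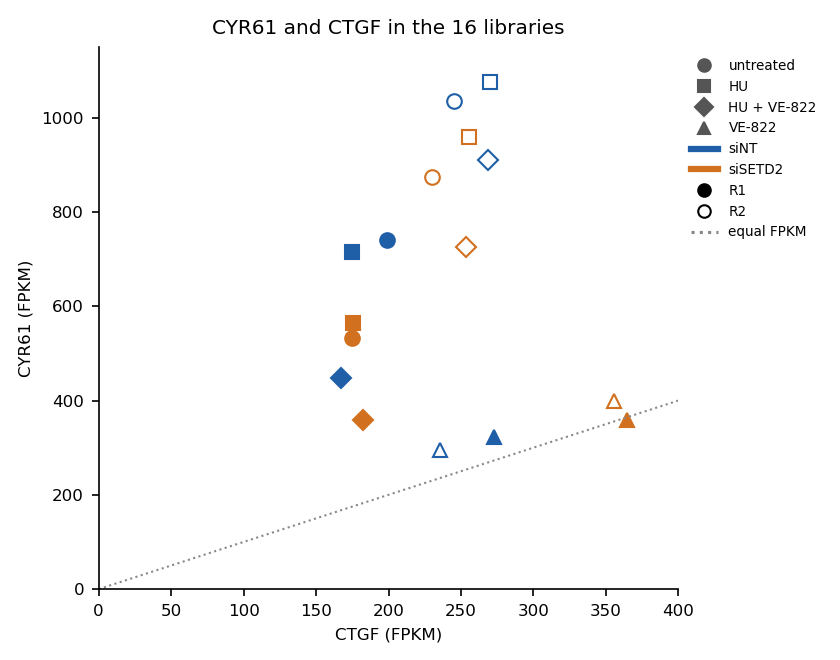
CYR61 against CTGF in FPKM (linear axes) in the 16 libraries, by treatment (symbol), siRNA (colour) and replicate number (filled R1, open R2), with a dotted line at equal FPKM. The 4 VE-822-alone libraries lie near the line, at ratios of 0.982 to 1.25, and the other 12 lie above it.

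Within siNT alone, 3 of the 10 genes passed for VE-822 (FRMD6, TEAD3 and LATS2), against 5.23% of tested genes. Within siSETD2 alone FRMD6 and TEAD3 passed, against 10.9% of tested genes. With the block 8 of 10 passed in siNT, against 21.2% of tested genes, and 8 of 10 in siSETD2, against 33.3%. The difference in response between the siRNAs did not pass for any of the 10 or for any tested gene (0%; limma). At an unadjusted p under 0.05 it held 0 of the 10 and 227 of 13088 tested genes without the block. With the block it held 2 of the 10 and 765 tested genes. It was largest for CYR61 (0.65, SE 0.61) and CTGF (0.64, SE 0.42), for which siSETD2 had the less negative and the more positive response. Leaving out the siSETD2 VE-822 R1 library lowered the count of passing genes from 8 to 3 (FRMD6, TEAD3 and LATS2), and leaving out the siNT untreated R2 library lowered it to 5. FRMD6, TEAD3 and LATS2 passed whichever of the 16 libraries was left out, with adjusted p up to 0.00324, 0.000850 and 0.0391.

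**Figure D3:**
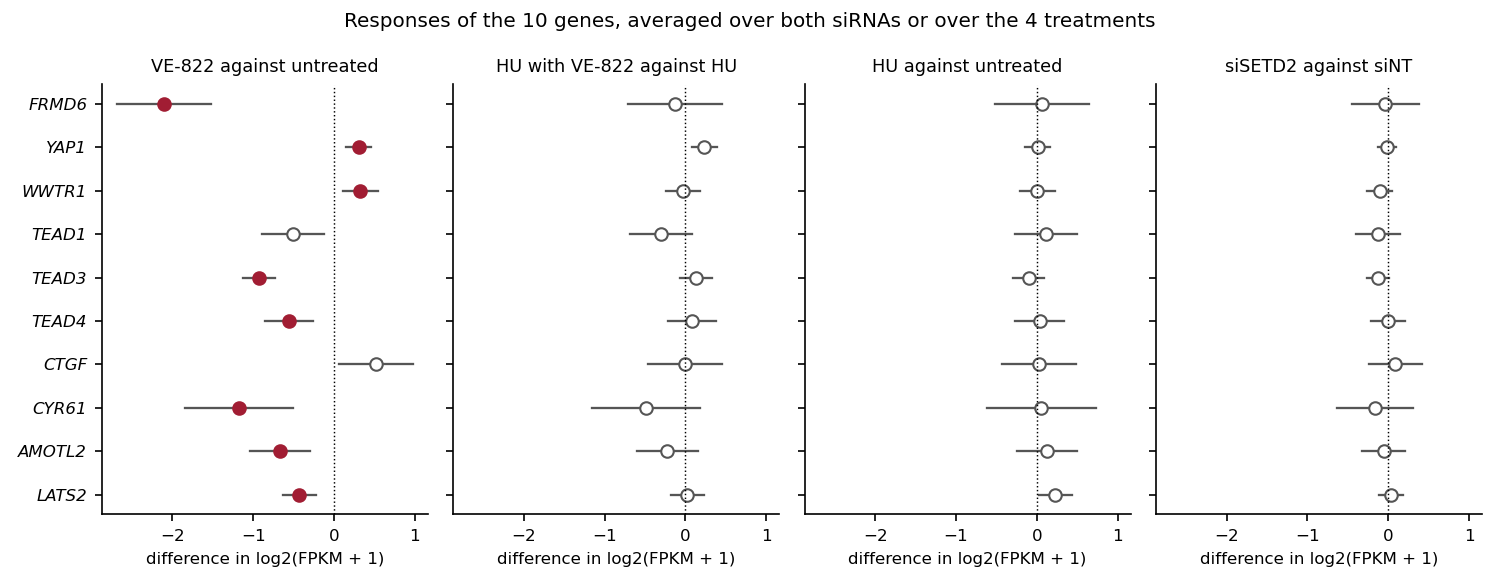
Difference in log2(FPKM + 1) of the 10 genes (points) with 95% confidence intervals from the limma fit, for 4 comparisons on a common axis; red points passed an adjusted p of 0.05. In the VE-822 panel 8 points are red, from -2.11 for FRMD6 to 0.32 for WWTR1, and no point is red in the other 3 panels.

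The same inhibitor gave no called change of the 10 genes when HU was present. In HU with VE-822 against HU, limma called 0 of 10 (0.00764% of all tested genes; 1.31% with the replicate number as a block, again 0 of 10), and voom on recovered fragments also called 0. Without the block only YAP1 of the 10 had an unadjusted p under 0.05, with a difference of 0.23 (SE 0.07, adjusted p = 0.417). Of all 13088 tested genes 1092 had such a p. With the block 4 of the 10 and 2360 tested genes had one. FRMD6 averaged 25.3 ± 6.09 FPKM with both drugs and 28.1 ± 8.12 FPKM with HU (SD, n = 4), and the difference of -0.13 had a 95% interval of -0.72 to 0.45. TEAD3 averaged 15.8 ± 1.31 and 14.3 ± 0.899 FPKM. CYR61 read 449 and 910 FPKM with both drugs in siNT, against 716 and 1076 FPKM with HU. In siSETD2 it read 360 and 726 FPKM with both drugs, against 564 and 960 FPKM with HU. CYR61 was thus lower with both drugs in each of the 4 pairs of the same siRNA and number, as were TEAD1 and AMOTL2, and YAP1 was higher in each. How many of all tested genes moved the same way in all 4 pairs was not counted, here or in other comparisons. The CYR61 ranges over the 4 libraries overlapped. The CYR61 difference was -0.49 (SE 0.30, adjusted p = 0.743 without the block and 0.0515 with it).

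The difference between both responses to VE-822, without HU minus with HU, was added after the levels had been seen. It passed for FRMD6 (-1.98, SE 0.37, adjusted p = 0.0108) and TEAD3 (-1.06, SE 0.12, adjusted p = 0.00105), 2 of 10 against 9.91% of tested genes. LATS2 (-0.45, adjusted p = 0.0539) and TEAD4 (-0.64, adjusted p = 0.0586) missed the threshold. YAP1 had nearly equal responses of 0.30 and 0.23, and their difference of 0.07 had a 95% interval of -0.15 to 0.29. Whether the VE-822-alone libraries were handled separately is not given in the labels, and such handling cannot be told apart from the treatment.

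HU alone left the 10 genes close to untreated. By limma 0 of 10 passed (0.107% of tested genes; 1.60% with the block, again 0 of 10), and voom also called 0. The highest of the 10 differences was that of LATS2, which read 7.18 and 9.07 FPKM with HU in siNT and 8.10 and 8.87 FPKM in siSETD2. Each exceeded its untreated library of the same siRNA and number, but the siNT R1 value lay inside the untreated range. The LATS2 difference was 0.23 (SE 0.09, unadjusted p = 0.0331, adjusted p = 0.586), and it was the one gene of the 10 with an unadjusted p under 0.05. Of all 13088 tested genes 992 had such a p. With the block 1 of the 10 and 2140 tested genes had one. The differences of the other 9 genes ranged from -0.10 (TEAD3) to 0.12 (AMOTL2). For YAP1 the 95% interval was -0.15 to 0.16, and for CYR61 it was -0.61 to 0.73.

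Both drugs together against untreated cells also called 0 of 10 by limma (0.0382% of tested genes) and 0 by voom. YAP1 averaged 13.9 ± 0.489 FPKM against 11.6 ± 0.469 FPKM untreated (SD, n = 4), with no overlap, and had a difference of 0.24 (SE 0.07, adjusted p = 0.171). LATS2 averaged 8.43 ± 0.483 against 6.94 ± 0.626 FPKM, also with no overlap, and had a difference of 0.25 (SE 0.09, adjusted p = 0.270). How many of all tested genes lay apart between 4 and 4 libraries was not counted, here or for VE-822 alone against untreated. YAP1 and LATS2 were the 2 genes of the 10 with an unadjusted p under 0.05, beside 1781 of 13088 tested genes. With the block 3 of the 10 and 3413 tested genes had one. With the replicate number as a block, 7.3% of tested genes passed, and 2 of the 10 were among them: YAP1 (0.24, adjusted p = 0.0454) and CYR61 (-0.44, adjusted p = 0.0358). This comparison, HU against untreated and VE-822 against untreated share the untreated libraries.

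SETD2 siRNA was not accompanied by a called change in any of the 10 genes. Averaged over the 4 treatments, limma called 0 of 10 without the block and 0 of 10 with it, and voom called 0. Of all tested genes 0.13% passed without the block, SETD2 itself among them, and 3.88% with it. The SETD2 difference was -1.09 (SE 0.13), with -1.3 within R1 and -0.87 within R2, so its RNA was lowered only in part. Whether the depth of knockdown bears on the 10 genes was not tested. At an unadjusted p under 0.05 there were 0 of the 10 and 1309 of 13088 tested genes without the block. With it there were 1 of the 10 and 2742 tested genes. The differences ran from -0.16 (CYR61, SE 0.22) to 0.09 (CTGF, SE 0.15), with 8 of 10 negative and a median of -0.04, against -0.01 over all tested genes. The 95% intervals were -0.13 to 0.09 for YAP1, -0.27 to 0.01 for TEAD3 and -0.63 to 0.31 for CYR61. In untreated cells CYR61 was lower in siSETD2 in both R1 (532 against 741 FPKM) and R2 (874 against 1036 FPKM), a difference of -0.36 (SE 0.43) that did not pass. CTGF had its largest siRNA difference with VE-822 alone, at 0.51 (SE 0.29, unadjusted p = 0.114), where both siSETD2 libraries exceeded both siNT libraries.

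The replicate number separated these genes in the 6 groups that were not given VE-822 on its own. R2 against R1 passed for 6 of the 10, against the 41.2% of tested genes given above: CYR61, CTGF, AMOTL2, TEAD1 and TEAD4 were higher in R2, and FRMD6 was lower. CYR61 read 360 to 741 FPKM over the 6 R1 libraries and 726 to 1076 FPKM over the 6 R2 libraries, higher in R2 in 6 of 6 groups (0.76, SE 0.09, adjusted p = 7.19e-05). CTGF read 167 to 199 FPKM in R1 and 230 to 270 FPKM in R2 (0.50, SE 0.07, adjusted p = 0.000335), without overlap. AMOTL2 and TEAD4 were likewise higher in all R2 libraries, by 0.40 (SE 0.07, adjusted p = 0.000955) and 0.28 (SE 0.06, adjusted p = 0.00523). Over all tested genes 7.88% were higher in R2 without overlap and 7.24% lower.

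FRMD6 read 30.1 to 36.0 FPKM in R1 and 19.6 to 22.6 FPKM in R2, lower in R2 in 6 of 6 groups (-0.68, SE 0.06, adjusted p = 2.28e-05). TEAD1 was higher in R2 in 6 of 6 groups with overlapping ranges (0.36, SE 0.09, adjusted p = 0.00814). LATS2 (0.15, adjusted p = 0.0541), WWTR1 (0.08), TEAD3 (0.04) and YAP1 (-0.0040) did not pass. In both VE-822-alone groups FRMD6 was also lower in R2 and TEAD4 higher, whereas CTGF and TEAD1 were lower in R2. CTGF was 273 in R1 and 235 FPKM in R2 in siNT, and 364 and 356 FPKM in siSETD2. CYR61 and AMOTL2 were lower in R2 in siNT and higher in siSETD2. Culture density, passage and handling are not given in the labels, and what the number carries was not tested.

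**Figure D4:**
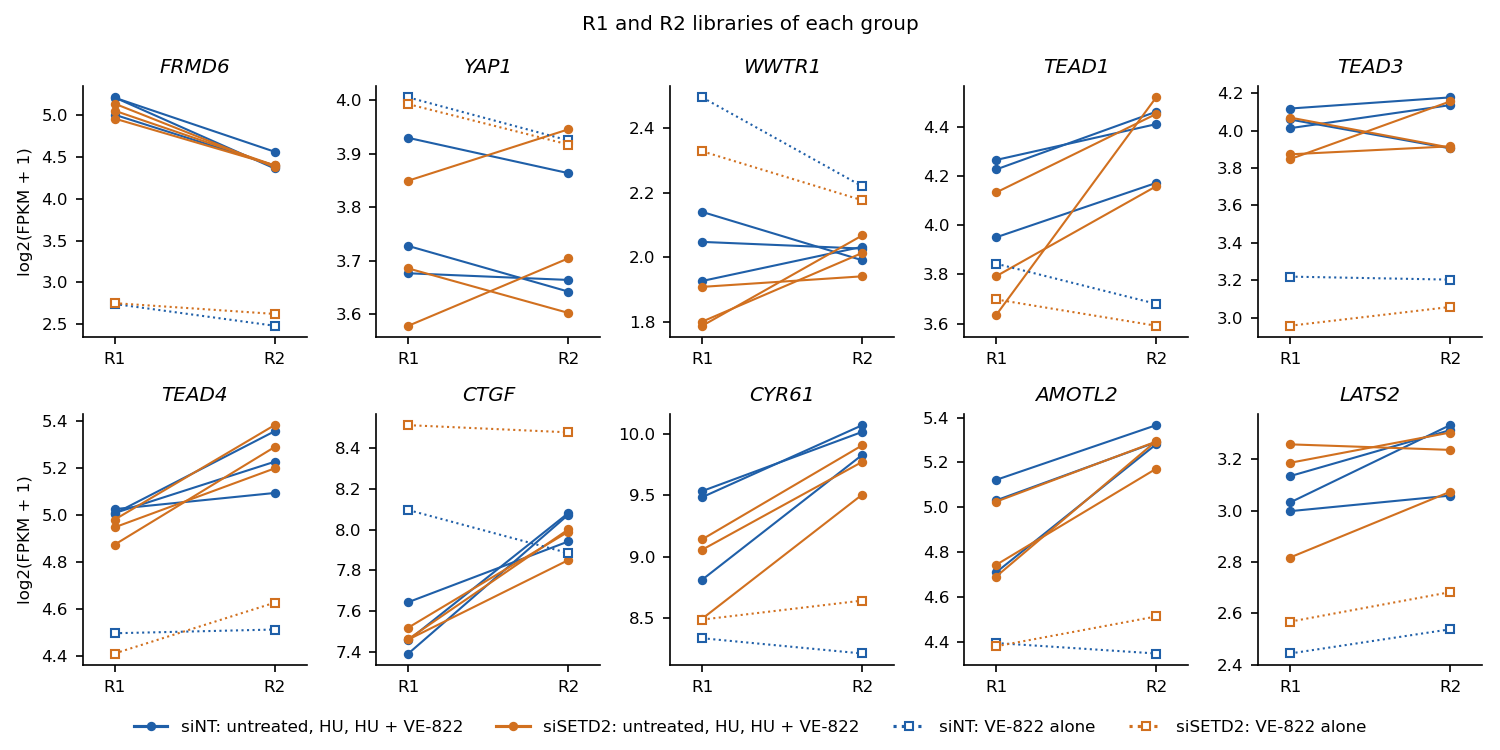
log2(FPKM + 1) of the 10 genes in R1 and R2 of each group, with solid lines for the untreated, HU and HU with VE-822 groups and dotted lines for VE-822 alone; each panel has its own axis, which does not start at 0. All 6 solid lines rise for TEAD1, TEAD4, CTGF, CYR61 and AMOTL2 and fall for FRMD6.

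Across the 16 libraries CYR61 followed AMOTL2 most closely of all tested genes by Pearson correlation of log2(FPKM + 1) (r = 0.964, n = 16), then SPECC1, EPHA2 and SAMD4A, at r of 0.954 to 0.943. AMOTL2 was nearest to SAMD4A (r = 0.969), CMIP, CYR61 and EPHA2. CTGF was nearest to PEX2 (r = 0.949), ILVBL, FZD7, ZNF202 and PEMT, none of them among the 10 genes. The libraries fall into VE-822-alone, other R1 and other R2 sets, which the genes share, so these values describe that grouping as well. Within the 6 R1 libraries CYR61 and AMOTL2 had r = 0.798, and within the 6 R2 libraries r = 0.909. CTGF and CYR61 had r = 0.383 and 0.251 within those sets.

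Other genes of the pathway were read from lists drawn up by role. In the kinase core and scaffolds, 5 of 11 tested genes fell with VE-822 alone and 0 rose, beside the 13.4% of all tested genes that fell. With the block 6 fell and 0 rose, beside 24.2% that fell. The list median was -0.29 against -0.03 over all tested genes. The largest was NF2 (merlin), the upstream activator of the cascade. NF2 read 6.62 and 6.53 FPKM in siNT and 5.20 and 5.67 FPKM in siSETD2 with VE-822, against 12.04 to 13.43 FPKM in the 4 untreated libraries, and fell by 0.99 (SE 0.07, adjusted p = 1.29e-05). STK4, the MST1 kinase, fell by 0.53 (SE 0.10), the KIBRA-family scaffolds WWC2 and WWC1 each fell by 0.44 (SE 0.07 and 0.12), and SAV1 fell by 0.31 (SE 0.06). LATS1, the other LATS kinase, had a difference of -0.00024 (SE 0.08). In the added comparison, NF2 (-0.81, adjusted p = 0.00105), STK4, SAV1 and WWC2 also passed, with a more negative response to VE-822 without HU than with it.

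Of the 15 tested partners and junction regulators, 5 fell with VE-822 and 0 rose, beside 13.4% and 11.4% of all tested genes. The list median was 0.11. With the block 6 fell and 5 rose, beside 24.2% and 20.7% of all tested genes. DCHS1, an atypical cadherin that rose with the block, read 4.89 to 5.14 FPKM in the 4 VE-822-alone libraries and 0.737 to 3.71 FPKM in the other 12 (0.94, adjusted p = 0.0547 without the block and 4.87e-05 with it). AJUBA, a LIM protein that restrains LATS kinases, fell by 0.70 (SE 0.21). SLMAP and STRN3, subunits of the STRIPAK phosphatase complex that opposes MST kinases, fell by 0.44 (SE 0.11) and 0.38 (SE 0.09). PTPN14, a phosphatase that binds YAP, fell by 0.43 (SE 0.10), and LIMD1, related to AJUBA, fell by 0.42 (SE 0.10). The genes that fell in these lists thus included both activators and inhibitors of the cascade.

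Of 15 tested genes of a YAP and TAZ target signature outside the 10, 3 fell and 0 rose, a share near that of all tested genes, with a list median of -0.31. With the block 9 fell and 1 rose, beside the 44.9% of all tested genes that passed. TGFB2, a TGF-beta ligand, was the one that rose with the block: it read 18.2 to 20.1 FPKM in the 4 VE-822-alone libraries and 2.64 to 12.5 FPKM in the other 12 (1.37, adjusted p = 0.0881 without the block and 1.67e-07 with it). AXL, a receptor tyrosine kinase, read 175 and 194 FPKM in untreated siNT cells and 76.7 and 63.1 FPKM with VE-822. In siSETD2 it read 90.3 and 154 FPKM untreated and 54.6 and 54.6 FPKM with VE-822. AXL fell by 1.24 (SE 0.17, adjusted p = 0.000791), with all 4 values below the other 12. DOCK5 fell by 0.41 (SE 0.10), and PTPN14 is also in this list. NOV (CCN3), the one tested gene of the CCN family beside CTGF and CYR61, read 59.9 to 77.1 FPKM with VE-822 and 31.6 to 40.5 FPKM untreated, and rose by 0.93 (SE 0.17, adjusted p = 0.00294).

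**Figure D5:**
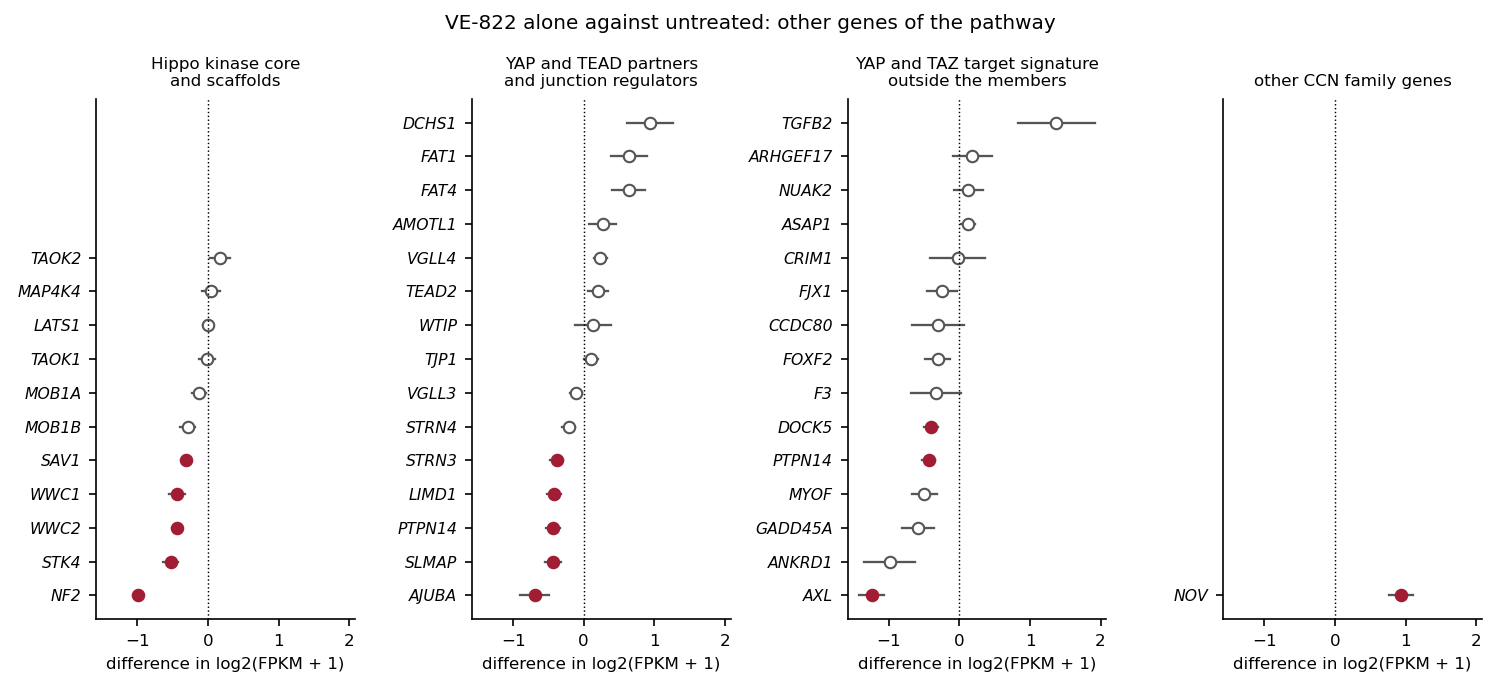
Difference in log2(FPKM + 1) between VE-822 alone and untreated, with bars of 1 standard error, for the tested genes of each other list; red points passed an adjusted p of 0.05. Red points are all negative in the first 3 panels, from NF2 at -0.99 and AXL at -1.24 upward, and NOV is positive at 0.93.

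In the other 4 drug and siRNA comparisons no gene of these lists passed without the block. For HU the largest differences were NUAK2 (0.75, SE 0.21), a kinase and YAP target, and ANKRD1 (-0.33, SE 0.37) in the signature, STK4 (-0.21) and TAOK2 (0.19) in the core, and FAT4 (0.29) and AJUBA (-0.26) among partners. For both drugs against HU they were F3 (-0.67, SE 0.36), TGFB2 (-0.35), MAP4K4 (0.21), MOB1A (0.19), FAT1 (-0.43) and PTPN14 (-0.23). For both drugs against untreated they were NUAK2 (0.93, SE 0.21, adjusted p = 0.0845), ASAP1 (0.41), SAV1 (0.35), MOB1A (0.32), VGLL4 (0.32) and WTIP (0.32). For SETD2 siRNA they were AXL (-0.52, SE 0.12, adjusted p = 0.135), FJX1 (0.36), LATS1 (-0.26, SE 0.05, adjusted p = 0.0916), TAOK1 (-0.12), TEAD2 (-0.31) and FAT1 (-0.29). NOV had differences of -0.03 to 0.39 in these comparisons.

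With the replicate number as a block in 6 groups, some genes of these lists passed. The lists held 11 tested core genes, 15 partners and 15 signature genes. Of all tested genes, 1.60% passed with this block for HU and 1.31% for both drugs against HU. The shares were 7.3% for both drugs against untreated (4.07% higher, 3.23% lower) and 3.88% for SETD2 siRNA. For HU it was NUAK2 alone (adjusted p = 0.00643). For both drugs against HU, F3 (adjusted p = 0.0253) and TGFB2 (adjusted p = 0.0411) passed, both lower. For both drugs against untreated, 3 core genes were higher, SAV1 (adjusted p = 0.00848), MOB1A (adjusted p = 0.0389) and MAP4K4 (adjusted p = 0.0133), and NF2 was lower (adjusted p = 0.0226). VGLL4 (adjusted p = 0.0395) was the one partner that passed, and it was higher. In the signature NUAK2 (adjusted p = 0.00255) and ASAP1 (adjusted p = 0.0214) were higher and TGFB2 (adjusted p = 0.0169) lower, and NOV was higher (adjusted p = 0.0293). For SETD2 siRNA, LATS1 (adjusted p = 0.0194), TEAD2 (adjusted p = 0.0188), VGLL3 (adjusted p = 0.0289) and AXL (adjusted p = 0.00984) were lower, and CRIM1 was higher (adjusted p = 0.0451).

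Between R2 and R1 the target signature moved in both directions: 7 of 15 genes were higher in R2 and 3 lower, beside 22.0% and 19.2% of all tested genes. TGFB2 (1.46, SE 0.06), CRIM1 (1.03), CCDC80 (0.96), F3 (0.92) and ARHGEF17 (0.66) were higher, and ANKRD1 (-0.94, SE 0.08) was lower. Among partners 7 were higher and 1 lower, including the atypical cadherins DCHS1 (0.83), FAT4 (0.59) and FAT1 (0.58), with WTIP (0.60), AJUBA (0.51) and AMOTL1 (0.45). In the kinase core TAOK2 (0.29) and WWC1 (0.25) were higher, and MAP4K4 (-0.30), MOB1B (-0.19) and TAOK1 (-0.18) were lower. NOV was higher by 0.37 (SE 0.07).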

How the data were processed

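The authors deposited one table of FPKM per gene and library. Per the submitters' processing notes, the genome build was hg38 and the tools named were featureCounts 1.5.0-p3, STAR 2.6.1d, DESeq2 1.26.0 and FastQC; strand settings and filters are not stated there. FPKM multiplied by merged GENCODE 29 exon length gave whole fragments for 100.0% of values (tolerance 0.01), and each library's denominator was 0.940 to 1.07 times its own total.

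Values were analysed as log2(FPKM + 1), so a difference understates the change of a low gene. Genes with mean FPKM of at least 1 were kept. One limma 3.58.1 fit (R 4.3.3) over 16 libraries, with 1 mean per group and a mean-variance trend, had 8 residual degrees of freedom. p-values were adjusted by Benjamini-Hochberg over all 13088 genes in each comparison, with a threshold of 0.05. R2 against R1 was read from a fit with the replicate number as a term in 6 groups. The labels do not say that libraries came from separate cultures, so p-values measure only the spread between libraries, which may be technical. Same-numbered libraries of those 6 groups deviated together across genes (correlations of 0.363 to 0.746), and those of the 2 VE-822-alone groups did so with each other (0.395). Between the 6 groups and VE-822 alone the correlations were -0.052 to 0.295, not all above 0.1, so the number was not taken to pair libraries there. The pairing comes from the data and not the design. Counts for HU against untreated were simulated over 13088 genes, with 200 changed. The fit recovered 95% of genes changed by 1 log2 unit and 100% of those changed by 2, with 12 false calls. The simulated counts had 1 setting of the spread for all genes and no shift between R1 and R2. These libraries had such a shift, so the recovery does not measure the power of the comparisons above.

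The 10 genes and the other lists were chosen with earlier results of these data known. In each other list, genes that passed are named, up to 6 by size, and where none passed the 2 with the largest difference. Of the 5 genes most correlated with each target and of the cell type markers, those reported here are named. LATS1, TEAD2, DCHS1 and TGFB2 with VE-822 and the range of RUNX2 were added after their values were seen. So were the genes of 4 comparisons that passed with the block and the levels of overlapping genes. Alternatives were the pseudocount, no filter, scaling to library totals, voom with trimmed-mean factors on recovered fragments, the replicate block, and leaving out libraries.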

Additional observations from a re-analysis of the deposited data

Results flagged for a closer look

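The response to VE-822 differed with and without HU for FRMD6, by -1.98 (log2, VE-822 alone against untreated minus both drugs against HU), and for TEAD3, by -1.06, by the limma test of that difference. Both genes were lower with VE-822 alone and had no called difference with VE-822 beside HU. The comparison was added after the levels had been seen, and 9.91% of all tested genes passed it. Whether the VE-822-alone libraries were handled separately is not given in the labels. Such handling cannot be told apart from the treatment.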

How the results depend on the processing

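Members called for VE-822 alone numbered 6 with no filter on low values (CYR61 and WWTR1 missed), 8 with a pseudocount of 0.1 or voom, 9 with library totals, 10 with either replicate block, and 3 to 8 when 1 library was left out. Beyond the siSETD2 VE-822 R1 and siNT untreated R2 libraries, WWTR1, CYR61 or AMOTL2 also lost its call without siNT untreated R1, siNT VE-822 R1 or R2, siSETD2 untreated R1 or siSETD2 VE-822 R2, and TEAD1 passed without siSETD2 untreated R1. For the added difference of both VE-822 responses the members called were 2 to 3 with a library left out, 4 with library totals, 4 with the replicate block over 8 groups and 8 with it in 6 groups. For R2 against R1 they were 6 to 7 with a library left out and 5 with the block over 8 groups. The other 4 comparisons called 0 members in every setting and with any library left out, except 2 for both drugs against untreated with the replicate block in 6 groups.

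All genes called with the replicate block in 6 groups and over 8 groups were 209 and 45 for HU, 172 and 20 for both drugs against HU, 956 and 413 for both drugs against untreated, 5874 and 5122 for VE-822 alone, 508 and 147 for siSETD2, and 4329 and 3319 for the added difference, against 14, 1, 5, 3237, 17 and 1297 without. With no filter they were 46 for HU, 25 and 40 for both drugs against HU and untreated, and 52 for siSETD2. Library totals gave 2 and 27 for both drugs against HU and untreated, voom 2 and 11, and 7 for siSETD2, and a pseudocount of 0.1 gave 11 for both drugs against untreated. Without the VE-822-alone libraries HU, both comparisons of both drugs, and siSETD2 gave 0. Leaving out 1 library gave 0 to 52 for HU (52 without siSETD2 untreated R1), 1 to 3 and 0 to 430 for both drugs against HU and untreated (430 without siSETD2 untreated R1), 1772 to 4599 for VE-822 alone (lowest without siNT untreated R1 or any 1 VE-822-alone library), 0 to 208 for siSETD2 (208 without siSETD2 untreated R2), 543 to 3049 for the added difference and 4234 to 5229 for R2 against R1. The cause was not tested.

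No member's difference for VE-822 alone changed sign in any setting. Sign changes were confined to differences that did not pass. With library totals YAP1 (-0.0074) and WWTR1 (-0.0077) for HU, CTGF (0.0038) for both drugs against HU, FRMD6 (0.0029), YAP1 (0.016) and TEAD4 (0.035) for siSETD2, and TEAD3 (-0.052) for R2 against R1 did so. With voom they were YAP1 (-0.012) and WWTR1 (-0.016) for HU, CTGF (-0.0073) for both drugs against untreated, and TEAD4 (0.014) for siSETD2. Without the VE-822-alone libraries it was CTGF for siSETD2 (-0.051). Within R1 they were WWTR1 (-0.0074), TEAD3 (0.036), TEAD4 (-0.046) and CTGF (-0.092) for HU, CTGF (-0.097) for both drugs against untreated, and TEAD1 (0.13) for the added difference. Within R2 they were YAP1 (-0.062) and TEAD1 (-0.0085) for HU, WWTR1 (0.048) and LATS2 (-0.043) for both drugs against HU, FRMD6 (0.017), WWTR1 (0.066) and TEAD3 (-0.10) for both drugs against untreated, YAP1 (0.019) and TEAD4 (0.077) for siSETD2, and YAP1 (-0.046) for the added difference.

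With 1 library left out the HU difference ranged from -0.13 to 0.18 for CTGF, -0.14 to 0.25 for CYR61, -0.15 to 0.28 for FRMD6, -0.023 to 0.040 for YAP1, -0.048 to 0.059 for WWTR1, -0.071 to 0.14 for TEAD4, -0.11 to 0.33 for TEAD1 and -0.026 to 0.28 for AMOTL2. For both drugs against HU it was -0.32 to 0.058 for FRMD6, -0.10 to 0.037 for WWTR1, -0.053 to 0.097 for LATS2, -0.18 to 0.16 for CTGF and -0.022 to 0.19 for TEAD4. For both drugs against untreated it was -0.28 to 0.15 for FRMD6, -0.046 to 0.11 for TEAD3, -0.15 to 0.19 for CTGF, -0.25 to 0.051 for AMOTL2, -0.41 to 0.032 for TEAD1 and -0.097 to 0.043 for WWTR1. For siSETD2 it was -0.14 to 0.072 for FRMD6, -0.054 to 0.050 for TEAD4, -0.0032 to 0.072 for LATS2 and -0.13 to 0.022 for AMOTL2. For the added difference it was -0.43 to 0.017 for TEAD1, and for R2 against R1 -0.030 to 0.012 for YAP1 and -0.018 to 0.076 for TEAD3. With 2 libraries a group, a group left with 1 is assumed to vary like the others.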
